A study of Homo sapiens with 2 samples.

Results

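NCKAP5, LYPD1, HTRA1, DMBT1, LPCAT2 and PTPRE are 6 genes that were higher on the array of miR-130b-overexpressing cells and that each lie beside another higher gene on a chromosome. LYPD1 lies next to NCKAP5, HTRA1 next to DMBT1, LPCAT2 next to MMP2 and PTPRE next to MKI67, so the 6 members and their 2 partner genes form 4 neighbouring pairs. The members were picked from 18417 named genes by their gene symbols, with these very differences already known. Their differences are therefore a description, and nothing is tested with them.

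The RNA came from A549, a human cell line established from a lung adenocarcinoma, and was recovered by immunoprecipitation with an anti-Ago2 antibody. The control cells carried an empty vector by transfection, the other cells overexpressed miR-130b, and each was measured on 1 Affymetrix array. There were no replicates, so no value has a replicate error and no p-value was computed. Nothing in the labels gives the type of vector or how long the cells carried it. No array of the RNA before precipitation or of a precipitate with a control antibody was analysed here, so a changed amount of an mRNA and a changed share of it in the precipitate cannot be told apart. In such bulk RNA, fewer cells with a transcript and less of it per cell cannot be told apart either.

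Ago2 is the protein that holds a mature microRNA and pairs it with target mRNAs, chiefly through the seed, bases 2 to 8 of the microRNA. Transcripts in an Ago2 precipitate include those bound through any microRNA of the cell, not only the overexpressed one. Neighbouring genes can share a chromatin domain, an enhancer or read-through transcription, and many neighbours are nevertheless regulated apart. The 6 members have no common pathway: they encode an adaptor-binding protein, a surface modulator of acetylcholine receptors, a secreted protease, a mucosal glycoprotein, a lipid acyltransferase and a tyrosine phosphatase.

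The agent that separates the arrays is shown first, because its seed is the part that would pair with a target. The sequences of both mature arms are RefSeq's (GRCh38.p14), the seed is in capitals, and the labels do not say which arm was meant.
hsa-miR-130b-3p: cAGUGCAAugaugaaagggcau
hsa-miR-130b-5p: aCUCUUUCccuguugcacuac
The 3p arm lies at chr22:21653354-21653375 and the 5p arm at chr22:21653316-21653336, both on the plus strand. The probe set of their gene, MIR130B, stood at 6.66 on the empty-vector array and at 12.64 on the miR-130b array (log2 values), a difference in the direction the labels give. The sequences of the members' transcripts were not used here, so no seed match was counted.

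The start regions of the members are shown next, because neighbours that move together could have similar promoters. Each run is the 250 bases before an annotated RefSeq start, 5′ to 3′ on the gene's own strand (GRCh38.p14), for 5 of the 6 members. Capitals mark matches on either strand to the TATA box (TATAAA), the GC box (GGGCGG), the CCAAT box (CCAAT), the AP-1 element (TGANTCA, N being any base), the E-box (CACGTG) or the cyclic AMP response element (TGACGTCA).
LYPD1, first start, chr2:132671527-132671776, minus strand: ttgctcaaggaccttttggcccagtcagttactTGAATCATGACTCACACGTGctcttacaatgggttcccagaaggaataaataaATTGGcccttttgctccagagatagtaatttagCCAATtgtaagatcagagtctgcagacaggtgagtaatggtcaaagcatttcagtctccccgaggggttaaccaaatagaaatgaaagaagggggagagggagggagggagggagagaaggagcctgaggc
LYPD1, second start, chr2:132670206-132670455, minus strand: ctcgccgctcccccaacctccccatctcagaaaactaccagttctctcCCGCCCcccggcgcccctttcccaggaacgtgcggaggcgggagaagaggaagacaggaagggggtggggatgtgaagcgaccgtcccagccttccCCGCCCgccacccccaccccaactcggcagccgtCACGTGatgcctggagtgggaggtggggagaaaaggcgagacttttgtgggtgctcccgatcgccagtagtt
NCKAP5, chr2:133568464-133568713, minus strand: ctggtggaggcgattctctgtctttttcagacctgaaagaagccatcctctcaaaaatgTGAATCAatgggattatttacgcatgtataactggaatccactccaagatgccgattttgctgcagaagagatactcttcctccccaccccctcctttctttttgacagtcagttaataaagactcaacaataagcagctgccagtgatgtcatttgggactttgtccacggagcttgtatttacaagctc
HTRA1, chr10:122461303-122461552, plus strand: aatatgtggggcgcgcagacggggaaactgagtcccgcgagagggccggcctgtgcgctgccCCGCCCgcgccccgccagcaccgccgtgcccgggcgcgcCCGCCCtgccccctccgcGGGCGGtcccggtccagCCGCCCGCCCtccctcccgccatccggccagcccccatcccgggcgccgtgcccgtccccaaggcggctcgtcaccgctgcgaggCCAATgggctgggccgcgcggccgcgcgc
DMBT1, chr10:122560504-122560753, plus strand: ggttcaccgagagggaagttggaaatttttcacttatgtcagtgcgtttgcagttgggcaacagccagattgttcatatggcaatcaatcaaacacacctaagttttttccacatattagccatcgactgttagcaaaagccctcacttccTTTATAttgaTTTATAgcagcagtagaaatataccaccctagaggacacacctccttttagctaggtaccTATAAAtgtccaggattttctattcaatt
PTPRE, first start, chr10:127906853-127907102, plus strand: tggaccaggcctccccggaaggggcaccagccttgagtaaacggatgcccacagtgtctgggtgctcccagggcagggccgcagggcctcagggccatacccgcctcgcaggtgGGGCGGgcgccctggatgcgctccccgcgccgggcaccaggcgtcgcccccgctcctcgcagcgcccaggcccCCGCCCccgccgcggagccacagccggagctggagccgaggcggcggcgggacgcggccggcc
PTPRE, second start, chr10:127987030-127987279, plus strand: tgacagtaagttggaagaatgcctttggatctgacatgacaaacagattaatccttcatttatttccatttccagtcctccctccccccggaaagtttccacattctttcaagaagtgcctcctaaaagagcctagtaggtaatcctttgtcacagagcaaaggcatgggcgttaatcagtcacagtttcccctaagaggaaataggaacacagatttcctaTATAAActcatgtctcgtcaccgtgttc

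Start regions of both genes were read for 3 of the 4 pairs. HTRA1 starts in sequence with 80.7% G or C over the 300-base window (250 bases before and 50 after the start), above 97.9% of the 35116 RefSeq windows, and holds 5 GC boxes, of which 2 overlap. DMBT1, its neighbour, has 40.7% G or C, above 12.4% of windows, no GC box and 3 matches to the TATA box on either strand. The nearest begins 29 bases before the start and is the only one that reads TATAAA on the gene's own strand. Those beginning 99 and 89 bases before the start read TTTATA, a match on the opposite strand. TATA boxes were present in 11.5% of all windows and GC boxes in 44.95%. At another pair, the first start of LYPD1 (45.3% G or C) and the start of NCKAP5 (46.3%) have similar base composition. Each holds the AP-1 letters, with 2 matches in LYPD1 and 1 in NCKAP5, against 7.71% of all windows with at least 1. These letters allow any middle base: it is A in NCKAP5, and A in 1 and C in the other match of LYPD1. The form with C is thus in LYPD1 alone. The 7.71% also allows any middle base, and windows were not counted by middle base. No shared AP-1 site is read from these matches. The second start of LYPD1 has 67.0% G or C, 2 GC boxes and no AP-1 letters. Both starts of LYPD1 hold an E-box, as 7.26% of all windows do. PTPRE has 4 annotated starts, from 77.0% G or C at the first to 42.7% at the second, where a TATA box begins 28 bases before the start. MKI67, its neighbour, has 69.7% G or C and 9 GC boxes at its start, against 3 at the first start of PTPRE. The cyclic AMP response element, present in 1.85% of windows, was found in none of the members' windows. A match is a stretch of letters and not a measured binding site.

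All 6 members were represented by a single probe set each, so no second probe set checks their values. For the 356 genes that passed the filter on low values and had several different probe sets, the differences varied between probe sets of 1 gene with a pooled SD of 0.16 on the log2 scale. That SD leaves out the variation between cultures and precipitations. Levels below are log2 expression values, and each difference is the value with miR-130b less the value with the empty vector. For counting, 9209 genes were kept, those with a mean over both arrays of at least 8.64, the median over the named genes. All 6 members were kept, but 4 of them (NCKAP5, DMBT1, LYPD1 and PTPRE) were under 8.64 with the empty vector and were kept through their level with miR-130b.

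At the first pair, NCKAP5, which encodes a protein named for its binding to the SH3 adaptor NCK, was at 7.24 on the empty-vector array and at 11.41 on the miR-130b array. The difference of 4.17 (18.0-fold) was second only to that of MIR130B among the 9209 kept genes. Its empty-vector level was 0.16 above the 95th percentile of 341 olfactory receptor genes on that array (7.08), genes that A549 cells are not expected to use. The fold thus rests on a low value near array background. LYPD1, a membrane-anchored Ly6-family protein that modulates nicotinic acetylcholine receptors, stood at 8.19 and 10.38. Its difference was 2.19 (4.56-fold), rank 10 among kept genes and 1.98 smaller than that of its neighbour. Both genes lie on the minus strand of chromosome 2. No RefSeq gene has its lower chromosome coordinate between the lower coordinates of these 2. On the minus strand that coordinate is the end of a gene, and genes between the annotated starts were not counted.

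At the second pair, DMBT1, a secreted glycoprotein with scavenger receptor cysteine-rich domains that binds bacteria at mucosal surfaces, was at 7.74 on the control array and at 10.85 on the other. The difference was 3.11 (8.61-fold), rank 5. HTRA1, a secreted serine protease that cleaves matrix proteins, was already at 9.86 with the empty vector and at 11.53 with miR-130b. Its difference of 1.67 (3.18-fold) ranked 15. Both lie on the plus strand of chromosome 10 with no lower coordinate of a RefSeq gene between theirs, and their differences were 1.44 apart.

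At the third pair, LPCAT2, an acyltransferase that makes phosphatidylcholine and platelet-activating factor, was at 11.01 and 12.22. That difference of 1.22 (2.33-fold), rank 61, was the smallest of the 6 members. MMP2, the type IV collagenase beside it on chromosome 16, stood at 8.72 and 12.05, a difference of 3.34 that exceeded that of LPCAT2 by 2.12. CAPNS2, a calpain subunit gene that lies inside LPCAT2, was at 6.32 and 6.67, under the 95th percentile of the olfactory receptor genes on both arrays (7.08 and 7.17).

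At the fourth pair, PTPRE, a receptor-type tyrosine phosphatase with membrane and cytosolic forms, was at 8.47 in the control and at 9.97 with miR-130b. The difference was 1.497 (2.82-fold), rank 25. MKI67, the gene of the proliferation marker Ki-67, stood at 11.29 and 12.30, a difference of 1.02 (2.03-fold). This pair was the least unequal, with a gap of 0.48 between its differences. Unlike the first and second pairs, its genes lie on opposite strands, PTPRE on the plus and MKI67 on the minus strand of chromosome 10. In RefSeq, 2 genes have their lower coordinate between those of PTPRE and MKI67, and both are antisense RNAs named after PTPRE. That count includes genes that overlap PTPRE itself.

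**Figure D1:**
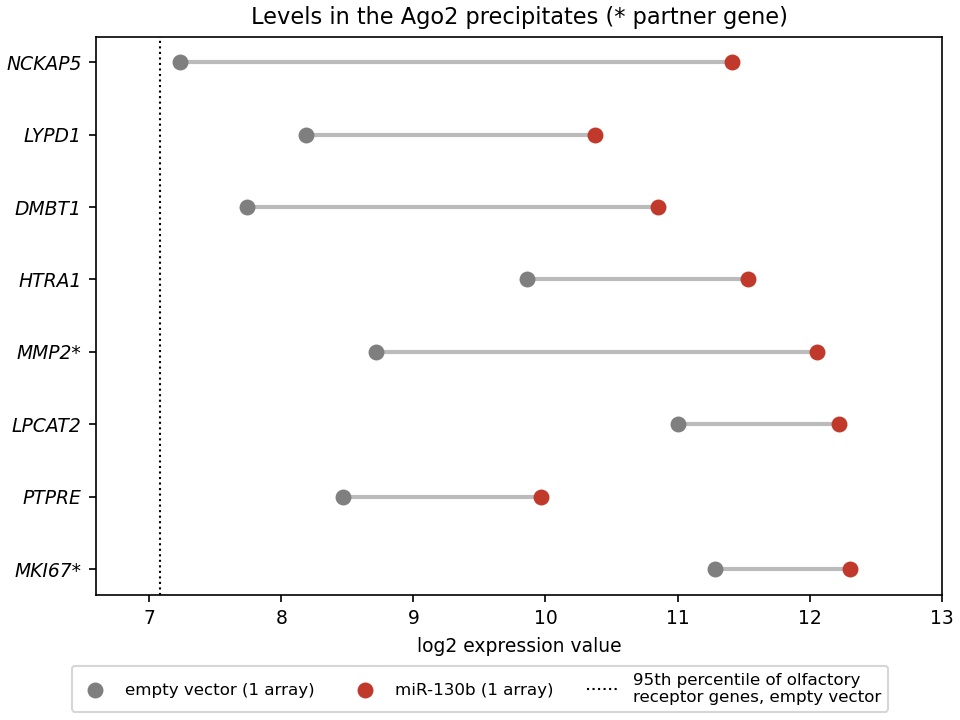
Log2 expression values (x axis) of the 6 members and the partner genes MMP2 and MKI67 on the empty-vector array (grey) and the miR-130b array (red), 1 array per group, with no error bars because there are no replicates. NCKAP5 and DMBT1 start closest to the dotted line, the 95th percentile of olfactory receptor genes at 7.08, and LPCAT2 and MKI67 were above 11 on both arrays.

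All 6 members were past 2-fold, as 1.32% of the kept genes were in the upward direction (122 of 9209) and 1.60% in the downward direction. Since the members were chosen by this difference, nothing is read from that count. Their median difference was 1.93 (3.81-fold) beside a median of 0.010 for all kept genes. Of the 20 kept genes past 3-fold, 4 were members.

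The genes around the pairs mostly did not share their differences. Taking the 5 nearest measured genes on each side of each member in RefSeq order gave 38 neighbours other than MMP2 and MKI67, of which 19 passed the filter. Of the 38, 1 was higher and 2 were lower by 2-fold or more, while without a filter 1.06% of all named genes were higher and 1.37% lower by that much. The neighbours' median difference was 0.066 against 0.053 for all 18417 named genes, and 34 of the 38 differed by less than 1.5-fold. At that threshold 464 of the 9209 kept genes were higher and 541 lower, so most kept genes also differed by less. The count is therefore not particular to these neighbours. Over 10 genes on each side the counts were again 1 and 2, of 78 neighbours.

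Next to LYPD1 and next to HTRA1, the difference was near 0 at the first measured gene outside the pair. GPR39, a zinc-sensing receptor gene whose annotation overlaps that of LYPD1, was at 9.94 and 10.02, a difference of 0.078 next to 2.19 for LYPD1. MGAT5, a glycosyltransferase on the far side of NCKAP5, was at 10.44 and 11.04, a difference of 0.60 that was the highest among the 10 nearest genes of this pair. PLEKHA1, before HTRA1, was at 11.30 and 11.29 and thus nearly equal on both arrays. Beyond DMBT1, C10orf120 was at 5.35 and 5.84, under the olfactory receptor percentiles given above, and DMBT1L1, a DMBT1-like gene, was at 7.01 and 7.07. ARMS2, which lies just before HTRA1 on the genome, had no probe set of its own name here. Around PTPRE and MKI67, CLRN3 (5.87 and 6.06) and MGMT, a DNA repair enzyme (both 8.52), were on the outer sides, and the 10 nearest genes differed by between -0.57 and 0.33.

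The surroundings of MMP2 and LPCAT2 went both ways. IRX3, a homeobox factor 3 measured genes before MMP2, was at 8.94 and 10.14, a difference of 1.21 (2.31-fold). The genes between, IRX5 and IRX6, differed by 0.34 and 0.13. On the other side, CES1, a liver-type carboxylesterase 4 measured genes beyond LPCAT2, was at 10.99 in the control and 8.65 with miR-130b, differing by -2.34. Its pseudogene CES1P1 differed by -1.20, and such similar copies may share probes. SLC6A2, the noradrenaline transporter gene between LPCAT2 and CES1P1, was at 7.28 and 7.33. Higher and lower genes thus stood within a few genes of each other at this locus.

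**Figure D2:**
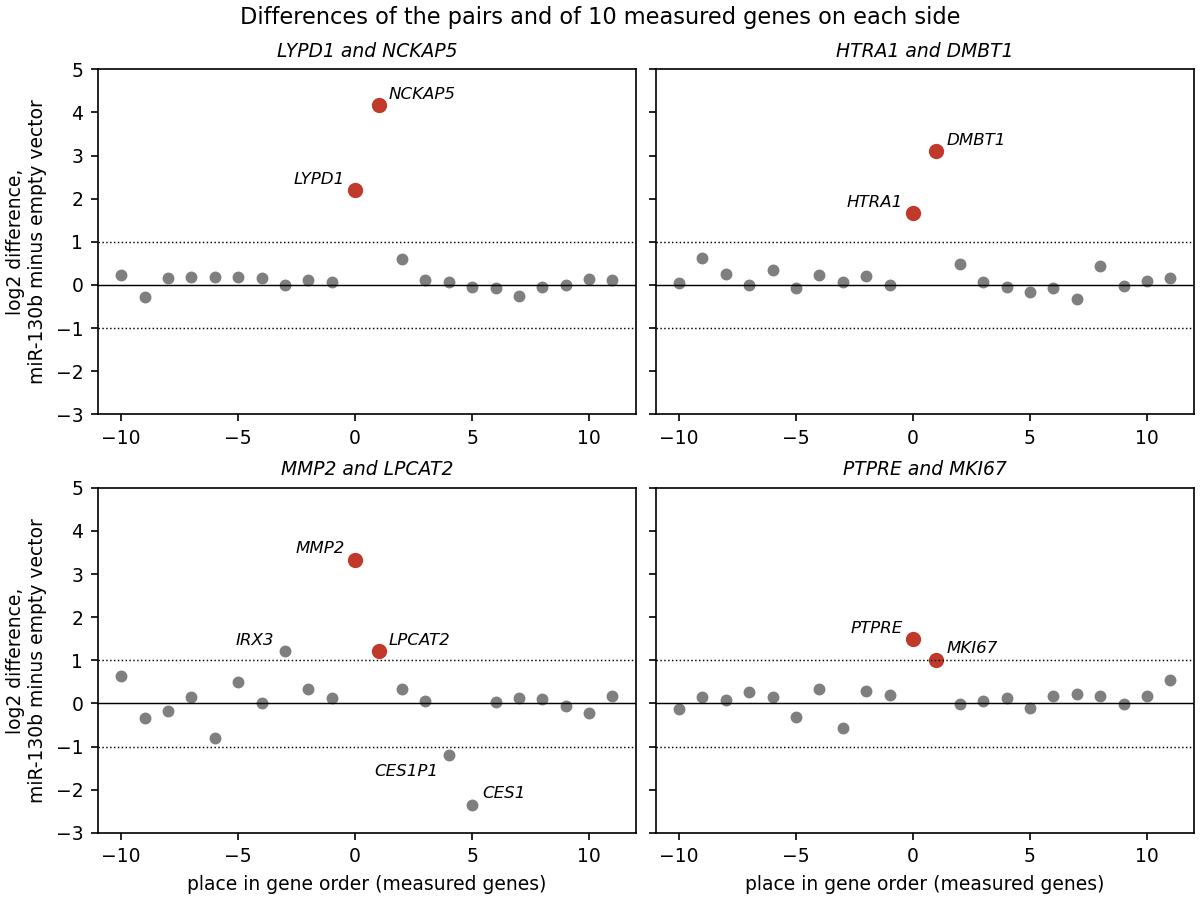
Log2 difference (miR-130b minus empty vector, y axis) of each pair (red) and of the 10 nearest measured genes on each side (grey) by place in RefSeq gene order (x axis), with dotted lines at 2-fold; each point is 1 gene on 1 array per group. Outside the pairs, IRX3 (1.21), CES1P1 (-1.20) and CES1 (-2.34) were the genes past a dotted line.

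The 4 pairs were compared with every other pair of neighbours. Among 9180 adjacent pairs of kept genes, 4 (0.0436%) had both genes at least 2-fold higher, and they were the 4 pairs of the members. Another 2 pairs (0.0218%) had both genes at least 2-fold lower: SEC24D with USP53, and ALG12 with CRELD2. In 6 pairs (0.0654%) the genes were past 2-fold in opposite directions. The members' pairs were selected for this pattern, so the match is not a result. In addition, 4 of the 6 members passed the filter only through their level with miR-130b. The pair just inside the threshold was PTPRE with MKI67, whose lower difference was 1.02. The pair just outside was SLC39A10 (0.99), a zinc transporter, with STK17B (0.93), a kinase, followed by CCNE2 (0.95), cyclin E2, with TP53INP1 (0.92). With the arrays centred on the median difference, MKI67 was 1.99-fold higher and its pair fell just outside.

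Without the filter, 8 of 18367 adjacent pairs (0.0436%) had both genes past 2-fold upward, and in 7 (0.0381%) both were past it downward. The 4 pairs beyond those of the members were SLC2A12 with SGK1, ASB4 with PDK4, MYO1D with TMEM98 and CENPF with KCNK2, each with at least 1 gene under the filter. SLC2A12, a glucose transporter, and SGK1, a stress-responsive kinase, differed by 2.28 and 1.39, more than PTPRE and MKI67. By the lower difference of a pair, they also exceeded MMP2 with LPCAT2 (1.22). The other added pairs had lower differences of 1.19, 1.10 and 1.08. All 4 added pairs were thus above PTPRE with MKI67 (1.02), and all were below the first and second pairs of the members. Across all kept genes the differences of adjacent genes were nearly unrelated, with a Pearson's r of 0.054 over 9180 pairs, against 0.011 at a distance of 2 genes over 9157 pairs and -0.0067 at a distance of 10 over 8973 pairs. These pairs share both arrays and, for gene families in clusters, similar probe sequences.

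**Figure D3:**
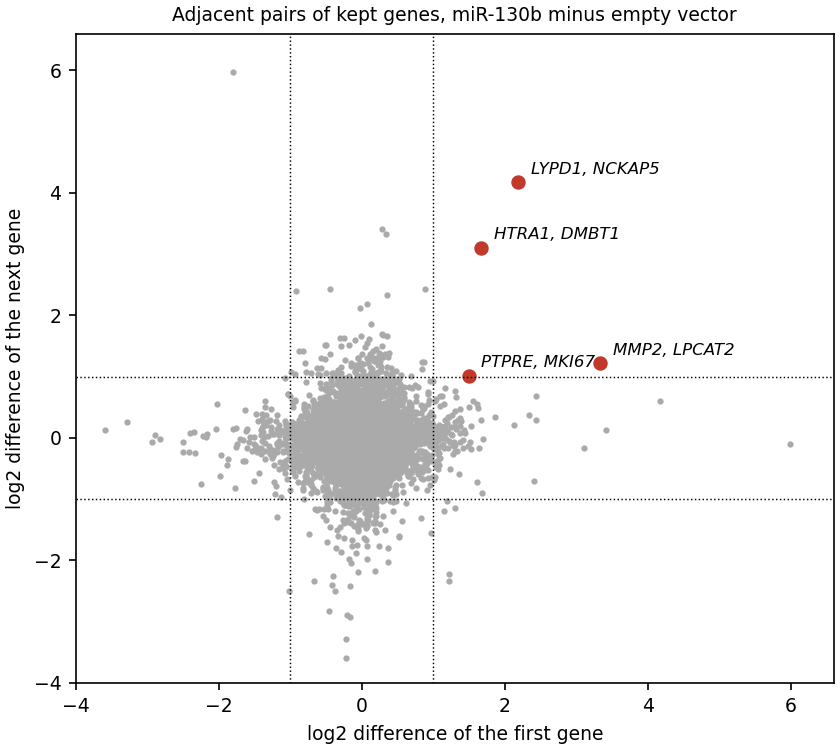
Each point is 1 of 9180 adjacent pairs of kept genes, with the log2 difference (miR-130b minus empty vector) of the first gene on the x axis and of the next gene on the y axis, and dotted lines at 2-fold. The 4 pairs in red are the ones in the upper right field, with LYPD1 and NCKAP5 farthest out, and the other points lie mostly in a round cloud about 0 (Pearson's r of 0.054).

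No kept relative of the members, by sequence or pathway, was 2-fold higher. Without the filter, 0 listed relatives were higher and 1 was lower by that much. SCARA5, listed with DMBT1 and under the filter, came nearest to 2-fold higher. It was at 7.96 and 8.94, a difference of 0.98 (1.97-fold). In 8 lists taken from general knowledge, 40 kept genes other than the members had a median difference of 0.11 beside 0.010 for all kept genes. Of the 40, 0 were higher by 2-fold or more and 1 was lower by as much, where 1.32% and 1.60% of all kept genes were. In a list of 40 genes, counts of 0 and 1 cannot be told apart from those shares.

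The 8 kept genes listed beside NCKAP5, which is named for binding NCK, encode NCK adaptors or subunits of the WAVE actin complex. Their likeness in sequence to NCKAP5 was not tested. They had a median of -0.059, beside 0.010 for all kept genes, and 7 were below 0. CYFIP2, a WAVE subunit, was lowest at -0.64 (11.27 and 10.63), and BRK1, another subunit, highest at 0.0017. NCKAP5L, the closest namesake of NCKAP5, was under the filter at 8.40 and 8.55. The 4 kept Ly6-domain genes besides LYPD1 were all above 0, from PLAUR, the urokinase receptor, at 0.037 to CD59, a complement inhibitor, at 0.84 (10.90 and 11.74). Of the nicotinic receptor subunits, which LYPD1 acts on, 2 of 12 measured were kept, CHRNA5 at 0.44 (11.83 and 12.27) and CHRNB2 at 0.11.

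HTRA2, the mitochondrial relative of HTRA1 and the only other kept HtrA protease, was at 10.65 and 10.34, a difference of -0.31. HTRA3 (7.85 and 8.19) and HTRA4 (6.86 and 6.95) were under the filter. Of 17 measured genes listed with DMBT1 for scavenger receptor cysteine-rich domains, 3 were kept, and all were above 0. They were LOXL2, a collagen cross-linking oxidase, at 0.53, LGALS3BP at 0.22 and LOXL1 at 0.18. Whether each listed gene, LOXL1 among them, has such a domain was not checked.

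The acyltransferase list held the 1 relative past 2-fold. MBOAT1 was at 9.82 in the control and 8.55 with miR-130b, and its difference of -1.28 was opposite to that of LPCAT2. The other 10 kept acyltransferases lay within 2-fold, LPCAT1 at -0.19, LPCAT3 at 0.21 and LPCAT4, the highest, at 0.47. Among genes of platelet-activating factor, PLA2G4A, the phospholipase that supplies the precursor, was highest at 0.41 and PAFAH2, which breaks the factor down, lowest at -0.56. Of the receptor-type phosphatases, 6 of 15 measured besides PTPRE were kept, 3 above and 3 below 0. The list named 20 genes, of which 16 were measured, and PTPRA and PTPRJ were not among those measured. PTPRU was highest at 0.65 (9.12 and 9.77) and PTPRM lowest at -0.44 (12.66 and 12.22).

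**Figure D4:**
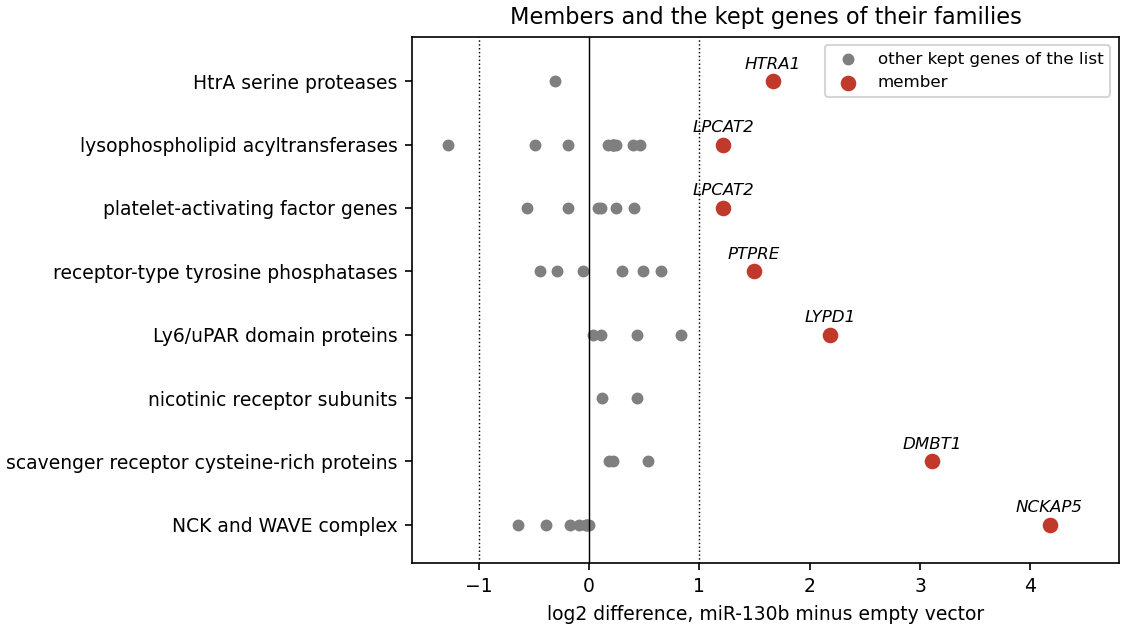
Log2 difference (miR-130b minus empty vector, x axis) of the members (red) and of the other kept genes (grey) in 8 lists of relatives, 1 list per row, with dotted lines at 2-fold; 1 array per group. Outside the members, MBOAT1 at -1.28 is the 1 gene past a dotted line, and the highest grey point is CD59 at 0.84.

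The kept genes whose difference was nearest to each member's over the 2 arrays were read off in the same way. For NCKAP5 and for DMBT1 they were the chaperone gene HSPA2 (3.41) and MMP2 (3.34). For LYPD1 they were the matrix genes HMCN1 (2.13) and SPARC (2.33). HTRA1 was closest to HES1, a Notch-responsive repressor, and the small GTPase gene RND1 (1.67 and 1.69), PTPRE to EMP1 and NR4A1 (1.49 and 1.485), and LPCAT2 to CENPE and BARD1 (both 1.22). With 2 arrays this likeness is a single number per gene.

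Markers of the labelled and of other cell types were looked at beside these values. The keratins KRT8 (13.38 and 13.48) and KRT18 (13.22 and 13.19), which epithelial cells express, were high on both arrays, whereas the lung factor NKX2-1 (6.503 and 6.43) and EPCAM (6.999 and 6.80) lay under the olfactory receptor percentiles. CDH1, E-cadherin, and the lipid transporter ABCA3 were 2.17-fold and 2.05-fold lower with miR-130b, while MUC1 was 1.33-fold and KRT19 1.29-fold higher. Of the 6 kept epithelial markers 3 were above and 3 below 0, with a median difference of 0.036. Of 9 fibroblast markers 1 was kept, and 4 in the control and 3 with miR-130b were at or under the olfactory receptor percentiles. Their levels ran from 4.46 to 8.74 and from 4.55 to 9.05, and the log2 of their summed level was 10.42 and 10.84. All 9 were higher with miR-130b, from DCN (4.46 and 4.55) to FAP, with a difference of 1.71 and the 1 marker of the list past 2-fold. The olfactory receptor median was also higher with miR-130b (5.77 and 5.86), and all named genes had a median difference of 0.053. Differences as small as that of DCN are therefore not particular to these markers. FAP was at 5.26 and 6.97, under the percentile on each array. THY1 differed by 0.60 (7.47 and 8.07). Leukocyte markers ran from 4.38 (PTPRC) to 11.14 (CD68, which was 2.27-fold lower with miR-130b), 3 of 5 at or under the percentiles on each array, with summed levels of 11.47 and 10.85. CD14, the other kept marker of that list, was 1.55-fold higher (8.89 and 9.53). Endothelial markers ran from 4.85 to 8.59 and from 4.97 to 8.69, 3 and 2 of 5 at or under the percentiles, with summed levels of 9.58 and 9.82. The part of other cell types in the members' differences was not tested.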

How the data were processed

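The series held RNA from Ago2 precipitates of A549 cells on 2 Affymetrix arrays, 1 for empty-vector cells and 1 for cells overexpressing miR-130b. The deposited table holds log2 expression values per probe set (33297 per array), a unit taken from their range of 1.95 to 14.17. Per the labels, the RNA was biotin-labelled as whole-transcript cDNA; which software, background correction and normalization followed is not given in the sources used here. Medians were 7.77 on both arrays, so an overall difference in precipitated RNA would not show. The labels' extraction text speaks of tissue although both samples are a cell line.

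Probe sets with 1 symbol in the platform annotation (19460; 1754 had several and 12083 none) were named, with symbols updated by Entrez identifier for 19429, and averaged per gene. Gene order came from RefSeq (GRCh38.p14), which placed 18391 genes. With 1 array per group no test was made: differences were counted at 2-fold, and precision is limited by the number of arrays. The counting was run on simulated differences for the 9209 kept genes, where 96.5% of 200 genes shifted by 1.5 were counted. That share follows from the chosen shift, threshold and normal spread. It holds no error between cultures or precipitations.

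The members, lists and motifs were chosen with earlier results of these data known. Named genes were the members and partners, MIR130B, ARMS2, the nearest measured neighbours, neighbours and list genes past 2-fold, the extremes of each list and the 2 kept genes nearest in difference. All others, such as further pairs, relatives, neighbours and markers named as examples, were added after their values were seen. Alternatives were quantile normalization, cyclic loess, median centring, the brightest probe set, a 1.5-fold threshold, other filters and windows, and subtraction of the olfactory receptor median. Python 3.11.15, pandas 2.3.3, R 4.3.3 and limma 3.58.1 were used.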

Additional observations from a re-analysis of the deposited data

How the results depend on the processing

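The differences of all 6 members kept their direction and stayed past 2-fold under quantile normalization, cyclic loess, median centring and background subtraction, the smallest fold being 2.29 for LPCAT2; taking the brightest probe set could not change them, since each has 1. Subtracting the median signal of the olfactory receptor genes moved LYPD1 to 2.42, NCKAP5 to 4.79 and DMBT1 to 3.48, by its construction most for low levels. At 1.5-fold, 464 kept genes were higher and 541 lower, with 2 neighbours higher, and 2 relatives higher and 2 lower. Among all placed genes, 37 adjacent pairs had both genes higher at that threshold, against 8 at 2-fold. Without a filter 196 genes were higher and 252 lower, and a filter at the 75th percentile of level gave 40 and 60, with 0 relatives lower. With 3 neighbours on each side 0 were higher and 1 was lower. Among kept genes only there were 4 adjacent pairs with both genes higher, against 8 among all placed genes and 7 among all placed genes after centring. Low signal limits the folds of NCKAP5 and DMBT1. No paired analysis was possible because each group has 1 array.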
